A study of Drosophila melanogaster with 35 samples.

Results

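The genes described here lie on chromosome 4 of Drosophila melanogaster. They were taken from a list of 47 names, which stand for 46 genes because Caps and Cadps name the same gene. A gene was kept if the array held a probe naming it alone, which left 33 genes of the 7736 measured in the series. The other 13 genes (PlexB, RpS3A, pan, Syt7, Zip102B, lgs, Asator, ey, fd102C, PlexA, CaMKII, sv and Mitf) had no such probe and were not analysed here. In all, 48 genes of chromosome 4 had a probe, so the list covers 33 of them.

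Chromosome 4 is the small dot chromosome of the fly. Most of it carries the marks of heterochromatin, including the protein HP1 and methylation of histone H3 at the lysine that Su(var)3-9 modifies, yet its distal arm holds genes that are transcribed. HP1 binds that methylated lysine, Su(var)3-9 is a methyltransferase that writes the mark, and both are best known from the repeat-rich DNA around centromeres.

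The arrays came from DamID in Kc167, a cell line made from embryos. In DamID the protein of interest is joined to the bacterial methyltransferase Dam, the DNA it methylates is recovered, and the array compares it with DNA from cells expressing Dam alone. Each value below is a log2 ratio of fusion over Dam, averaged over the probes of a gene, where 0 is the level of the median gene of the array. HP1 was profiled on 4 arrays, Su(var)3-9 on 3, HP3 on 4, HP4 on 4, HP5 on 4 and HP6 on 3, all in cells without a knock-down, and Jra, a transcription factor of the AP-1 family, on 3 arrays. In knock-down cells the HP3 fusion has 3 arrays with HP1 depleted and 3 with the control gene white depleted, and the HP6 fusion has 2 arrays of each kind. All fusions were carried into the cells on transfected plasmids. The labels do not say whether replicates were separate cultures, so p-values measure the spread between arrays, which may be technical. How far the knock-down lowered HP1 was not measured on these arrays.

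A pair of arrays stood apart from their labels. On the array labelled HP3 replicate 2 the ratio at Lhr, the gene that encodes HP3, was 0.09, against 3.52 to 6.19 on the other HP3 arrays. Over all probes it was like no other array of the series, its highest r being 0.087. On the array labelled HP6 replicate 3 the ratio at the gene of HP4 was 4.81, and across all genes this array was most alike to HP4 replicate 4 (r = 0.907). The counts of listed genes called for HP3 and HP6 in cells without a knock-down are therefore given with and without this pair. The genes whose call changed are named with those counts. Other HP3 and HP6 results in these cells include the pair unless stated. Among them are the group medians, the counts by class of gene and some means of single genes. No probe named the genes that encode HP6 or Su(var)3-9, nor white.

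Each of the 6 heterochromatin proteins was called at 17 to 23 of the 33 genes, and Jra was called above 0 at none in the fit over all arrays. A gene is called bound where its fitted mean ratio exceeded 0 at a limma adjusted p below 0.05, with adjustment over the 7703 genes tested. HP1 was called at 23 of the 33 genes, against 7.78% of all genes tested. Su(var)3-9 was called at 21, against 16.1%, HP4 at 22, against 19.4%, and HP5 at 21, against 18.3%. HP3 was called at 17, against 3.73%, and HP6 at 22, against 6.37%. Without the doubted pair of arrays HP3 was called at 20 genes, gaining Crk, Tdg and Eph, against 4.49% of all genes in that fit, and HP6 at 19, losing ci, mav and Cadps, against 4.47%. Jra was called above 0 at 0 genes by limma, against 10.8% of all genes, while 7 of the 33 had an unadjusted p under 0.05 in either direction. It was called at 2 genes without the doubted pair (12.2% of all genes) and at 6 with only the Jra arrays in the fit (23.2% of all genes). The count for HP3 rested on its arrays unevenly, since it was 9 without HP3 replicate 1 (2.23% of all genes) and 1 when only the HP3 arrays entered the fit (0.0519%).

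The median ratio over the 33 genes was 1.97 for HP1, 1.47 for HP6, 0.96 for HP4, 0.91 for Su(var)3-9, 0.83 for HP5, 0.80 for HP3 and 0.04 for Jra. Over all genes tested these medians lay between -0.03 and 0.01. On single HP1 arrays the median of the 33 genes was 1.99, 2.37, 1.43 and 1.54. On the HP3 arrays it was 1.12, 0.05, 1.19 and 0.82, the second being the doubted array, and on the Jra arrays it was 0.02, -0.06 and -0.15. Every HP1 array thus stood above every Jra array, as the plot of single arrays shows.

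**Figure D1:**
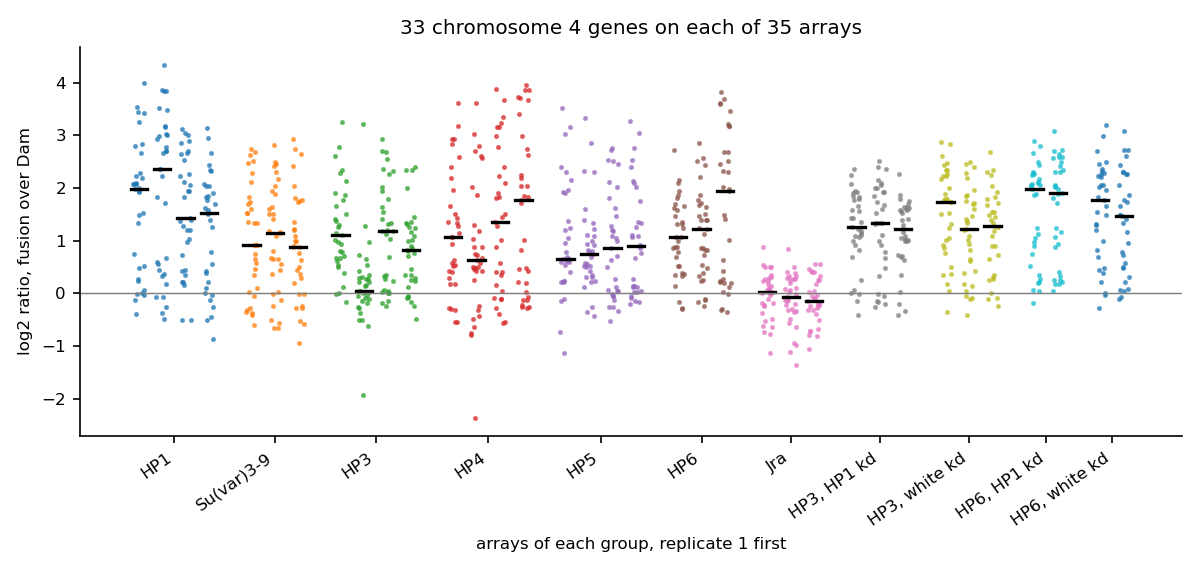
Log2 ratio of fusion over Dam (vertical axis) at the 33 chromosome 4 genes on each of the 35 arrays, grouped along the horizontal axis by fusion and knock-down (kd), with a point for each gene and a black bar for the median of the genes on that array. The medians of the HP1 arrays run from 1.43 to 2.37, those of the Jra arrays from -0.15 to 0.02, and HP3 replicate 2 stands at 0.05 among HP3 arrays at 0.82 to 1.19.

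The genes fell into those bound by nearly all heterochromatin proteins and those bound by few. All 6 proteins were called at 15 of the 33 genes (45.5%), a combination found at 126 of the 7703 genes tested (1.64%). Another 4 genes were called for 5 proteins (2.16% of all genes), 1 for 4 (1.58%) and 1 for 3 (5.35%). A further 2 were called for 2 (7.43%), 5 for 1 (13.9%) and 5 for none. The shares of the 33 genes called for 1 and for 2 proteins, 15.2% and 6.06%, were thus near those of all genes. Of all genes tested, 67.9% were called for none. Without the doubted arrays 16 genes were called for all 6 proteins and 5 for none. The map of the 33 genes by group shows both kinds lying between each other along the chromosome.

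**Figure D2:**
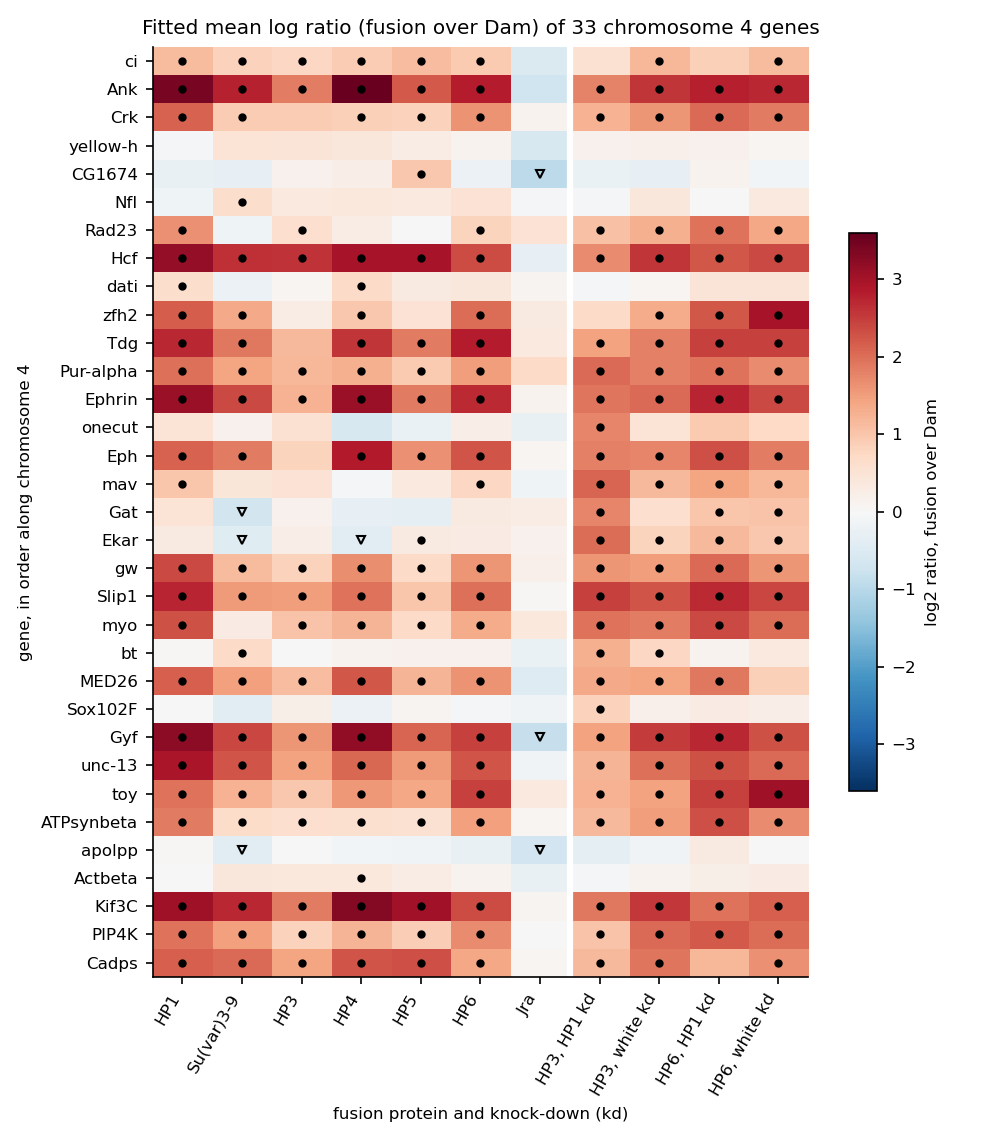
Fitted mean log2 ratio of fusion over Dam (colour scale) for 33 genes (rows, in their order along chromosome 4) in 11 groups (columns; kd is knock-down, and the white line parts cells without a knock-down from knock-down cells). Filled circles mark a limma adjusted p under 0.05 above 0 and open triangles one below 0. Rows such as Ank, Hcf and Kif3C are filled in each heterochromatin column, while yellow-h and apolpp hold no filled circle and the Jra column holds none.

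Transcription factors and cofactors were represented by 10 genes. HP1 was called at 7 (7.78% of all genes), Su(var)3-9 at 7 (16.1%) and HP4 at 7 (19.4%). HP6 was called at 6 (6.37%), HP3 at 5 (3.73%) and HP5 at 5 (18.3%). Hcf, the fly host cell factor and a partner of chromatin-modifying complexes, had the highest means of the class for every heterochromatin protein but HP6. Its HP1 arrays read 3.45, 3.84, 3.05 and 2.34, its HP3 arrays 2.14, 3.22, 2.69 and 2.34, and its HP5 arrays 3.51, 2.31, 2.77 and 3.27. No array of these 3 proteins fell below 2.14 at this gene, the doubted HP3 array included. Its Su(var)3-9 arrays read 2.74, 2.30 and 2.65. The fitted mean of Hcf was 3.17 ± 0.28 (SE, n = 4) for HP1 (limma adjusted p = 6.48e-10) and -0.31 for Jra.

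Also called for all 6 proteins were ci, the transcription factor of the Hedgehog pathway, MED26, a subunit of the Mediator complex, Pur-alpha, a nucleic acid binding protein, and toy, a paired-box factor of eye development. Their HP1 means were 1.13, 2.15, 1.99 and 1.97. For ci the call with HP6 was lost without the doubted arrays (0.82, adjusted p = 0.0801). zfh2, a zinc finger homeodomain protein, had HP1 at 2.17 and HP6 at 2.02 (1.84 without the doubted array), but was not called for HP3 (0.26) or HP5 (0.52). dati, a zinc finger factor, was called for HP1 (0.64) and HP4 (0.68) only among the 6 proteins, and NfI, the nuclear factor I gene, for Su(var)3-9 (0.64) only.

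The homeobox gene onecut and the Sox-family gene Sox102F were called for none of the 6. onecut read 0.00, 0.34, 1.20 and 0.38 on the HP1 arrays, 0.65, 0.45 and -0.57 on the Su(var)3-9 arrays, 1.27, 1.28, -0.24 and -0.07 on the HP3 arrays and -0.27, -2.36, -0.10 and 0.43 on the HP4 arrays. Its arrays scattered on both sides of 0, with HP4 replicate 2 far below the rest. With HP5 it read -0.11, -0.42, -0.33 and -0.05, and with HP6 0.33, 0.23 and 0.23. Sox102F read 0.07, -0.26, 0.16 and -0.04 on the HP1 arrays and -0.61, -0.56 and -0.02 on the Su(var)3-9 arrays. Its HP3 arrays read 0.66, 0.21, 0.07 and -0.06, its HP4 arrays 0.41, -0.75, -0.28 and -0.27, its HP5 arrays 0.23, 0.36, -0.13 and -0.09 and its HP6 arrays 0.37, -0.24 and -0.32. No array of any of the 6 proteins reached 1 at Sox102F.

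Of the 33 genes, 8 had several probes, and toy showed the widest gap between them. At the probe GH26083 toy had fitted means of 2.98 for HP1, 3.21 for Su(var)3-9, 3.51 for HP4 and 3.40 for HP5, each called. At GH14454 the same proteins gave 0.96, -0.69, -0.41 and -0.61, with only the HP1 value called. HP6 departed from that split. At GH14454 the HP6 fusion averaged 2.67 ± 0.22 after HP1 knock-down and 3.23 ± 0.07 after white knock-down (SD, n = 2 each), close to 2.27 and 2.84 at GH26083. In cells without a knock-down GH14454 averaged 1.93 ± 1.78 (SD, n = 3) for HP6, its low array being the doubted HP6 replicate 3. Jra read 1.08, 1.07 and 0.56 at GH14454 (fitted mean 0.89, adjusted p = 0.0633) and -0.53, -0.54 and 0.27 at GH26083. The call of toy for Su(var)3-9, HP3, HP4 and HP5 thus rests on GH26083. At ci the probe GM19621 averaged 2.00 with HP1 and the other probe 0.25.

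**Figure D3:**
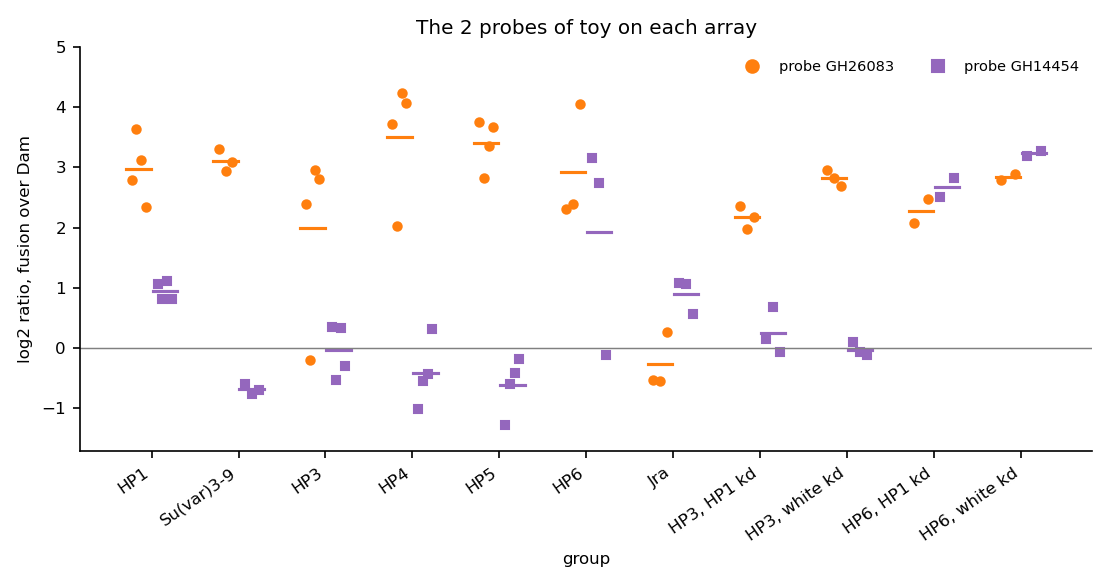
Log2 ratio of fusion over Dam (vertical axis) at the 2 probes of toy in 11 groups (horizontal axis; kd is knock-down), with a point for each array and a bar for the mean. GH26083 (circles) is high with every heterochromatin protein, for example 3.51 for HP4, while GH14454 (squares) is at -0.41 for HP4 and reaches 3.23 for HP6 after white knock-down.

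Among genes of RNA, translation, DNA repair and energy supply, HP1 (7.78% of all genes) and HP6 (6.37%) were each called at 5 of 5. Su(var)3-9 (16.1%), HP3 (3.73%), HP4 (19.4%) and HP5 (18.3%) were each called at 4 of 5. Gyf, a regulator of translation, read 3.44, 3.84, 2.70 and 2.95 with HP1 and 2.94, 2.81, 3.35 and 3.73 with HP4. Its fitted mean was 3.23 ± 0.21 for HP1 and 3.21 ± 0.21 for HP4 (SE, n = 4 each). gw, which acts in silencing by microRNAs, was called for all 6, with 2.38 for HP1 and 0.69 for HP5, and so was ATPsynbeta, a subunit of the mitochondrial ATP synthase, with 1.86 for HP1 and 0.55 for HP5. Tdg, the thymine DNA glycosylase listed as Thd1, read 2.10, 2.86 and 3.22 with HP6 (fitted mean 2.83, or 2.66 without the doubted array). With HP3 its arrays read 2.78, -1.93, 2.56 and 1.31, and it passed only without the doubted array (2.16, adjusted p = 1.17e-05, against 1.18 and 0.0729 with it).

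Rad23, a protein of DNA repair and of protein turnover, had a mixed pattern. It read 1.52, 1.83, 1.43 and 1.78 with HP1 and was also called for HP3 (0.60) and HP6 (0.79), or 0.76 and 1.14 without the doubted arrays. With Su(var)3-9 it read -0.04, -0.25 and -0.24, and with HP5 -0.73, 0.57, -0.05 and 0.15. No Su(var)3-9, HP4 or HP5 array reached the lowest HP1 array.

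The signalling genes numbered 7, and HP1 (7.78% of all genes), HP4 (19.4%) and HP6 (6.37%) were each called at 6 of them. HP5 was called at 5 (18.3%), Su(var)3-9 at 4 (16.1%) and HP3 at 3 (3.73%). Ephrin, a membrane-bound ligand, and Eph, its receptor tyrosine kinase, were both among the bound genes. Ephrin read 3.55, 3.87, 2.90 and 2.08 with HP1, 2.84, 2.70, 3.25 and 3.68 with HP4 and 1.87, 2.52 and 3.59 with HP6. With HP3 it read 3.25, -0.11, 1.95 and -0.09, so that replicate 4 was as low as the doubted array. Eph averaged 2.12 for HP1 and 2.84 for HP4 and passed for HP3 only without the doubted array (1.16, adjusted p = 0.00172, against 0.80 and 0.0514 with it).

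Crk, an adaptor protein of receptor signalling, likewise gained HP3 without that array (1.35, against 0.91 with it), and PIP4K, a phosphoinositide kinase, was called for all 6 (HP1 1.96). The 3 TGF-beta family ligands differed from each other. myo, the myoglianin gene, had HP1 at 2.30 and was called for 5 proteins, without Su(var)3-9 (0.30). mav, the maverick gene, was called for HP1 (0.99) and HP6 (0.73, but 0.80 with adjusted p = 0.0666 without the doubted array). Actbeta was called for HP4 alone of the 6, at 0.38, and its HP1 arrays read 0.52, -0.49, 0.44 and -0.51.

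Of 5 genes of synapse and nerve cell function, unc-13, Slip1 and Cadps were called for all 6 proteins (1.64% of all genes). unc-13, which primes synaptic vesicles, averaged 2.93 for HP1, and Slip1, named for its interaction with the Slowpoke channel, averaged 2.73. Cadps, which acts in release from dense-core vesicles, read 2.30, 2.32, 2.13 and 2.53 with HP5. With HP6 it read 0.89, 0.73 and 2.52, and its call was lost without the doubted array (0.66, adjusted p = 0.131, against 1.38 with it). That 0.66 is a fitted mean corrected for dye, and it lies below both remaining arrays, which share the same dye.

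The GABA transporter gene Gat and Ekar, a kainate-type glutamate receptor gene, had little of any protein in cells without a knock-down. Gat read 0.75, 0.17, 1.04 and 0.01 with HP1 and -0.38, -0.66 and -0.93 with Su(var)3-9, the last called below 0 (adjusted p = 0.0136). In the fit its HP1 mean of 0.49 had an adjusted p of 0.0722, and it passed with equal spread per array (0.0159), without HP1 replicate 4 (0.0239) and without HP5 replicate 1 (0.0327). With HP3 Gat read -0.01, 0.01, 0.33 and 0.34, with HP4 -0.55, -0.31, -0.11 and -0.23, with HP5 -1.13, -0.26, -0.01 and 0.13 and with HP6 0.69, 0.25 and 0.02. Its HP4 arrays were all below 0 and its HP6 arrays all above. Ekar read 0.25, 0.37, 0.43 and 0.21 with HP1, and was called below 0 for Su(var)3-9 (-0.45) and HP4 (-0.40) and above 0 for HP5 (0.34).

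The remaining 6 genes serve the cytoskeleton, muscle, transport and other roles, and only Ank and Kif3C carried HP1 (7.78% of all genes). Ank, an ankyrin that links membrane proteins to the spectrin skeleton, had the highest HP1, HP4 and HP6 means of the 33 genes, although its HP6 mean of 2.84 became 2.24 without the doubted array, below toy (2.77) and Tdg (2.66). It read 4.00, 4.34, 2.66 and 2.67 with HP1 and 3.62, 3.61, 3.16 and 3.86 with HP4, and 2.16, 2.45 and 3.83 with HP6. With HP3 it read 2.28, 0.05, 2.70 and 2.34, and with HP5 3.15, 2.86, 0.06 and 2.76, so a single array was near 0 in each. Its HP3 mean was 1.84, or 2.46 without the doubted array. Its Su(var)3-9 arrays read 2.69, 2.82 and 2.75. Kif3C, a kinesin motor, read 3.03, 3.34, 2.73 and 3.06 with HP5 and 2.51, 2.43 and 2.93 with Su(var)3-9. With HP4 it read 2.59, 3.03, 3.89 and 3.70, and with HP3 1.87, 0.28, 2.93 and 2.40, again low on the doubted array (HP3 mean 1.87, or 2.35 without it).

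The other 4 genes of this class had HP1 means between -0.26 and 0.04. bt, which encodes the muscle protein projectin, was called in cells without a knock-down for Su(var)3-9 only, at 0.69. In knock-down cells HP3 was called at bt after both HP1 and white knock-down. The HP3 means of the bt probes were 1.13 to 1.53 after HP1 knock-down and 0.52 to 1.02 after white knock-down. CG1674 was called for HP5 only, where its arrays read 1.05, 0.31, 2.54 and 0.02, the high one being the array on which Ank was at 0.06. yellow-h, of the yellow family, and apolpp, the lipid carrier apolipophorin, were called for none. yellow-h read -0.04, 0.60, -0.50 and -0.25 with HP1, and apolpp -0.13, -0.07, 0.22 and 0.11. For yellow-h, HP3 passed with equal spread per array (0.63, adjusted p = 0.0228) and under no other alternative tried. With Su(var)3-9 yellow-h read 0.35, 0.67 and 0.44, with HP3 -0.16, 0.97, 0.27 and 0.80, with HP4 0.43, 0.47, 0.58 and 0.19, with HP5 0.66, 0.43, -0.26 and 0.27 and with HP6 0.36, -0.16 and 0.20. Its Su(var)3-9 and HP4 arrays were all above 0, but neither mean passed (adjusted p = 0.0869 and 0.076). For apolpp the Su(var)3-9 arrays read -0.27, -0.65 and -0.27, the HP3 arrays 0.02, 0.23, -0.17 and -0.15, the HP4 arrays 0.18, 0.26, -0.55 and -0.26, the HP5 arrays 0.54, -0.36, -0.53 and -0.20 and the HP6 arrays -0.27, -0.11 and -0.36. No array of these proteins exceeded 0.54 at apolpp, which was called below 0 for Su(var)3-9 (-0.42) and for Jra (-0.69). Calls below 0 were scarcer than over all genes for Su(var)3-9 and HP4, and near the share of all genes for Jra. Su(var)3-9 was below 0 at 3 of the 33 genes (Gat, Ekar and apolpp), against 17.1% of all genes, and HP4 at 1 (Ekar), against 22.0%. Jra was called below 0 at 3, against 6.98% of all genes, the other two being Gyf (-0.82) and CG1674 (-0.94).

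The 15 measured genes of chromosome 4 outside the list were called as follows. HP1 was called at 12 of them (7.78% of all genes), HP4 at 12 (19.4%) and HP5 at 13 (18.3%). HP6 was called at 11 (6.37%), Su(var)3-9 at 10 (16.1%) and HP3 at 7 (3.73%). All 6 proteins were called at 7 (1.64%). These counts use all 35 arrays, the doubted pair included. The highest HP1 means were at CG31998 (3.09), Cals (2.89) and eIF4G1 (2.82).

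Where the proteins differed from HP1, their ratios were mostly lower. The arrays were not brought to a common spread in this fit. The median distance of a gene from the array median ran from 0.15 (HP3 replicate 3) to 0.70 (HP4 replicate 2). A lower ratio therefore need not mean less binding. These differences all use the same 4 HP1 arrays, so they are not independent of each other. Su(var)3-9 was lower than HP1 at 6 of the 33 genes, against 5.01% of all genes, and higher at 1, against 2.26%. HP3 was lower at 10, against 2.64%, HP4 at 7, against 4.40%, and HP5 at 10, against 3.74%, with 1 higher, against 2.13%. Jra was lower at 23, against 9.02%. By limma 0 of the 33 genes were higher for HP3 (0.571% of all genes), HP4 (3.91%) or Jra (9.57%), and at an unadjusted p under 0.05 these were 1, 2 and 0 genes. HP6 differed at 0 genes by limma, against 0.0130% of all genes lower, while 5 of the 33 had an unadjusted p under 0.05. Without the doubted arrays HP3 was lower at 5 genes, against 1.84% of all, and HP6 at 2, Cadps (-1.48) and Kif3C (-1.35), against 0.0520%. Those HP6 differences rest on HP6 arrays of a single dye.

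The Su(var)3-9 ratio stood furthest below that of HP1 at myo and Rad23. myo read 0.04, 0.38 and 0.37 with Su(var)3-9, against 2.19, 2.70, 2.27 and 2.04 with HP1, a difference of -2.00 ± 0.30 (SE, limma adjusted p = 0.000114). Rad23 differed by -1.80 ± 0.26 (adjusted p = 6.46e-05). Neither group of arrays overlapped the other at these genes, which were picked for their large differences on the same arrays. The share of all genes separated this way is not given. The only higher gene was NfI, which read 0.58, 0.66 and 0.88 with Su(var)3-9, against 0.27, -0.36, 0.36 and -0.86 with HP1 (difference 0.79, adjusted p = 0.0488). This call was lost under 29 of 44 alternatives.

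HP3 stood furthest below HP1 at zfh2 and Ephrin. zfh2 read 1.15, -0.61, 0.23 and 0.29 with HP3, against 2.08, 2.66, 2.23 and 1.70 with HP1, a difference of -1.90, or -1.61 (adjusted p = 0.00888) without the doubted array. Ephrin differed by -1.85 (adjusted p = 0.0334), or -1.37 (adjusted p = 0.14) without it. HP4 was lowest against HP1 at Rad23 (-1.39 ± 0.24, adjusted p = 0.00128) and ATPsynbeta (-1.28 ± 0.22, adjusted p = 0.00128). Rad23 read -0.32, 0.51, 0.35 and 0.48 with HP4, below each of its HP1 arrays. ATPsynbeta read 0.53, -0.24, 1.01 and 1.02 with HP4, against 2.07, 2.37, 1.38 and 1.61 with HP1.

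HP5 was lowest against HP1 at Slip1 and gw. Slip1 read 0.64, 0.78, 1.18 and 1.34 with HP5, against 2.24, 3.52, 2.86 and 2.32 with HP1 (-1.75 ± 0.36, adjusted p = 0.00645). gw read 0.22, 0.80, 0.86 and 0.87 with HP5, against 2.79, 2.79, 2.07 and 1.86 with HP1 (-1.69 ± 0.25, adjusted p = 0.000219). The arrays did not overlap at either gene, both again picked for their large differences. CG1674 read 1.05, 0.31, 2.54 and 0.02 with HP5, against 0.00, -0.06, -0.51 and -0.45 with HP1. It was higher with HP5 by 1.24 (adjusted p = 0.03), but by 0.67 (adjusted p = 0.132) without HP5 replicate 3, and the call was lost under 6 of 44 alternatives, among them leaving out HP1 replicate 1, 3 or 4 or HP5 replicate 1. Of the 23 genes with a lower ratio for Jra than for HP1, Ank and Gyf had the largest differences, -4.15 and -4.06. Ank read -0.61, -0.94 and -0.71 with Jra, and Gyf -1.12, -1.37 and -0.24.

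These counts of differences shifted with the arrays and the fit. Su(var)3-9 differed from HP1 at 4 genes without HP1 replicate 3 or Su(var)3-9 replicate 3. It differed at 11 without the doubted pair, where 2.68% of all genes were higher and 6.59% lower. HP3 differed at 4 without HP3 replicate 2 or HP1 replicate 2 and at 6 without HP3 replicate 4 or HP1 replicate 1. HP4 differed at 2 without HP4 replicate 2 or HP1 replicate 3. HP5 differed at 6 without HP5 replicate 1 or HP1 replicate 1 and at 7 without HP5 replicate 2 or 3. The counts with 1 array left out stand without the share of all genes. A shift at these genes therefore cannot be told from a shift over all genes. With only the arrays compared in the fit the counts were 3 for Su(var)3-9, 0 for HP3, 0 for HP4 and 7 for HP5, where 2.40%, 0.00%, 0.0909% and 1.19% of all genes differed. With the arrays brought to 1 common spread they were 7, 3, 4 and 10, where 8.80%, 7.92%, 3.65% and 8.17% of all genes differed. The difference from Jra stayed at 23 genes when any array was left out.

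Profiles over the 33 genes were close between HP1 and HP6, with r = 0.94 between their mean ratios (0.87 without the doubted array), and between HP1 and HP3 after white knock-down, with r = 0.95. This was not particular to HP6. In cells without a knock-down r with HP1 was 0.86 for HP3 (0.92 without the doubted array) and 0.87 for HP4. It was 0.84 for Su(var)3-9 and 0.77 for HP5. Between HP1 and HP3 after HP1 knock-down r was 0.58 over the same 33 genes. For HP6, r with HP1 was 0.93 after HP1 knock-down and 0.89 after white knock-down. These are descriptions across genes that lie on 1 chromosome, and the sources used here do not say whether arrays shared Dam-only DNA.

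The knock-downs asked whether HP3 and HP6 still bound these genes when HP1 was depleted. HP3 was called at 25 of the 33 genes after HP1 knock-down, against 19.9% of all genes, and at 24 after white knock-down, against 6.85%. Both groups called 22 of them. onecut, Gat and Sox102F were called only after HP1 knock-down and ci and zfh2 only after white knock-down, and among these 5 the difference itself passed at Gat alone. The median ratio over the 33 genes was 1.28 after HP1 knock-down and 1.45 after white knock-down.

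Tested directly, HP3 rose after HP1 knock-down at 3 of the 33 genes, Ekar, Gat and mav, against 8.30% of all genes, a share near the background. It fell at 1 gene, Gyf, against 0.480% of all genes. The other 29 did not pass, and the median difference over the 33 genes was -0.19, against -0.03 over all genes.

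Ekar read 1.93, 2.36 and 1.69 after HP1 knock-down, against 1.06, 0.66 and 0.66 after white knock-down, a difference of 1.20 ± 0.21 (SE, limma adjusted p = 0.000387). Gat read 1.59, 2.07 and 1.65 after HP1 knock-down, against 0.76, 0.17 and 0.90 after white knock-down, a difference of 1.16 ± 0.29 (adjusted p = 0.00843). mav read 2.25, 2.39 and 1.62 after HP1 knock-down, against 1.51, 1.09 and 0.90 after white knock-down, a difference of 0.92 ± 0.28 (adjusted p = 0.0368). At all 3 genes, picked by their p on these same arrays, every HP1 knock-down array lay above every white knock-down array. This held for 24.0% of all genes, so it adds no support. On the HP3 arrays without a knock-down Ekar had been between 0.12 and 0.35, Gat between -0.01 and 0.34 and mav between 0.42 and 0.69. The call of Ekar held under all 44 alternatives, that of Gat under all but 2, without HP3 HP1 knock-down replicate 2 (adjusted p = 0.113) and without HP3 white knock-down replicate 2 (0.0942), and that of mav under all but 5 (equal spread per array, and leaving out HP1 knock-down replicate 1 or 2 or white knock-down replicate 2 or 3), with adjusted p up to 0.274. Without HP1 knock-down replicate 2 or white knock-down replicate 2, 1 gene was called higher (2.26% and 4.52% of all genes).

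The 3 genes follow each other directly in the order of protein-coding genes of chromosome 4, at places 41, 42 and 43 of 80. The gene after them, gw at place 44, differed by 0.11, and Eph before them, at place 40, by 0.06. At place 39, onecut read 1.85, 1.92 and 1.58 after HP1 knock-down, against 0.86, 0.42 and 0.28 after white knock-down. Its arrays did not overlap, but its difference of 1.27 ± 0.46 did not pass (adjusted p = 0.0936). CG1909, at place 38 and outside the list, rose by 0.99 (adjusted p = 0.012). The stretch was noticed after the values were seen, and its neighbours are shown in the plot of HP3 at single genes. Away from it, bt differed by 0.53 and Sox102F by 0.65, with arrays that did not overlap and adjusted p of 0.257 and 0.11.

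**Figure D4:**
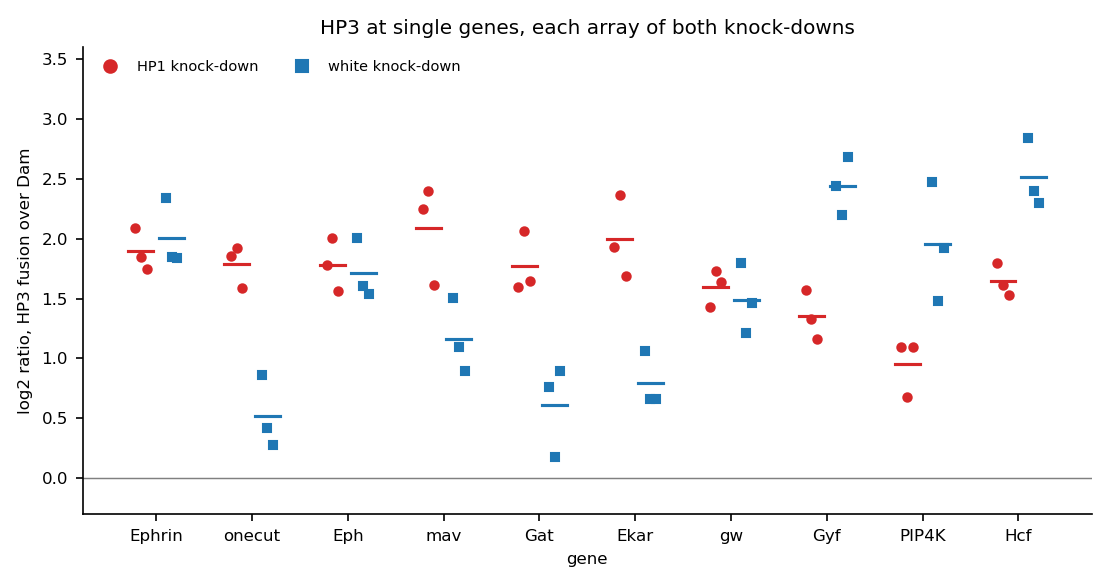
Log2 ratio of the HP3 fusion over Dam (vertical axis) at 10 genes of chromosome 4 (horizontal axis), with a point for each array and a bar for the mean of 3 arrays, after HP1 knock-down (circles, left of each pair) and after white knock-down (squares, right). Arrays of the HP1 knock-down lie wholly above those of the white knock-down at onecut, mav, Gat and Ekar, wholly below them at Gyf, PIP4K and Hcf, and among them at Ephrin, Eph and gw. The genes were picked after their values were seen.

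Gyf read 1.57, 1.33 and 1.16 after HP1 knock-down, against 2.44, 2.20 and 2.68 after white knock-down, a difference of -1.09 ± 0.35 (adjusted p = 0.0469). The arrays did not overlap, but the adjusted p lay close to the threshold and the call was lost under 22 of 44 alternatives, including the fit without a dye term (0.104) and leaving out HP3 HP1 knock-down replicate 2 (0.334) or 3 (0.095) or HP3 white knock-down replicate 1 (0.153) or 3 (0.234). PIP4K read 1.09, 0.68 and 1.09 after HP1 knock-down, against 2.47, 1.48 and 1.92 after white knock-down, and its difference of -1.00 ± 0.36 had an adjusted p of 0.0877. Hcf differed by -0.87, Ank by -0.81 and unc-13 and Cadps by -0.75 each, none of which passed. All of these genes kept an HP3 call after HP1 knock-down. Arrays of the HP1 knock-down lay wholly below those of the white knock-down at 11 of the 33 genes (33.3%, against 18.8% of all genes), and wholly above at 6 (18.2%, against 24.0%). When only the 6 HP3 knock-down arrays entered the fit, 9 genes were called lower, against 6.91% of all genes in that fit, and 6 higher, against 17.8%.

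Set against HP1 binding in cells without a knock-down, which was measured on other arrays, the HP3 difference had medians on either side of 0 among the 33 genes, with members of both signs in each set. Over the 23 genes bound by HP1 its median was -0.32, with 17 below 0, and over the 10 unbound genes it was 0.30, with 4 below 0. Among all genes tested the 599 bound by HP1 also had a median of -0.32, with 457 below 0, and the 7104 others had -0.01. Across the 33 genes the HP3 difference and the HP1 ratio had r = -0.55 (rho = -0.46), and across all 7703 genes r = -0.36 (rho = -0.28).

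**Figure D5:**
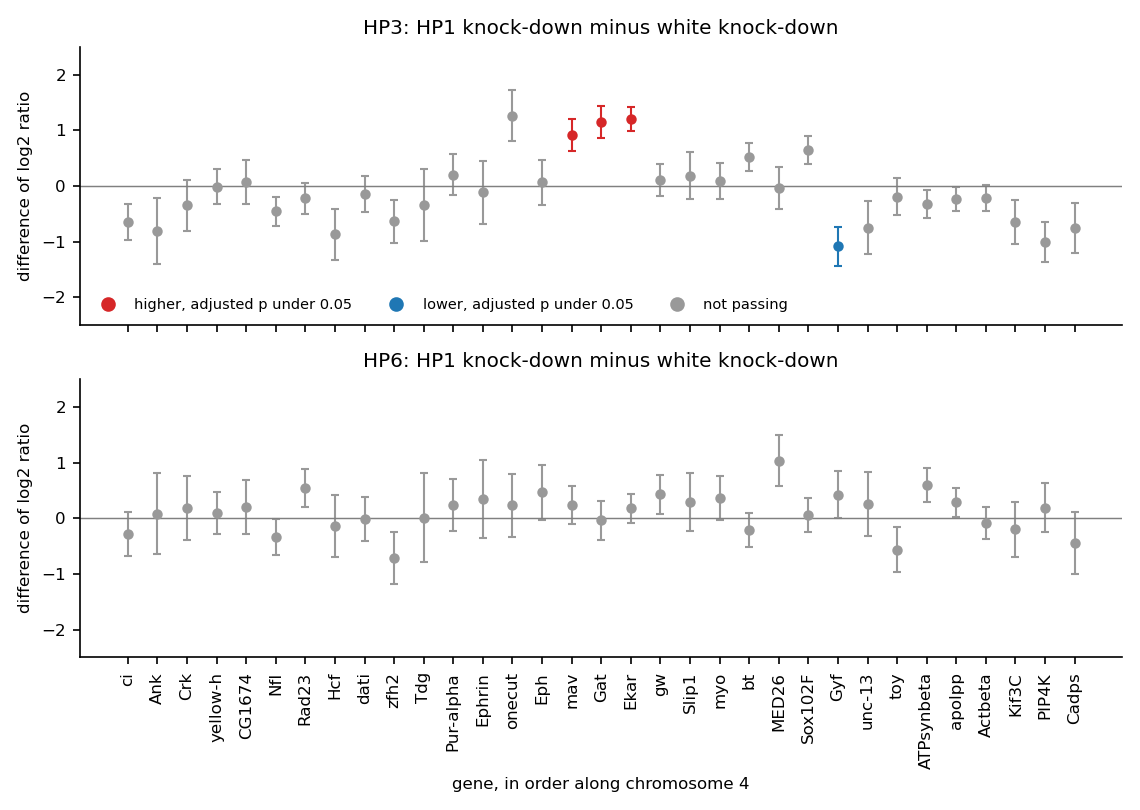
Difference of the fitted log2 ratio, HP1 knock-down minus white knock-down (vertical axis), for HP3 (upper) and HP6 (lower) at 33 genes in their order along chromosome 4 (horizontal axis). Bars are SE of the fit, red and blue points have a limma adjusted p under 0.05 above and below 0, and grey points did not pass. The coloured points are mav, Gat and Ekar (0.92 to 1.20) and Gyf (-1.09) in the upper panel, and the lower panel has none.

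HP6 was called at 22 of the 33 genes after HP1 knock-down, against 4.17% of all genes, and at 23 after white knock-down, against 3.63%, with 21 called in both. The medians over the 33 genes were 1.95 after HP1 knock-down and 1.65 after white knock-down. These counts came from 2 arrays a group, and they were 14 without HP6 HP1 knock-down replicate 1 (1.05% of all genes) and 4 without HP6 white knock-down replicate 1 (0.376%), with the lone array then assumed to vary like the other groups. The difference passed at 0 genes by limma in either direction, against 0.00% of all genes higher and 0.0260% lower, and 1 of the 33 genes had an unadjusted p under 0.05. The median difference over the 33 genes was 0.18, against 0.01 over all genes.

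The 5 genes with the lowest p for HP6 were MED26, ATPsynbeta, Rad23, zfh2 and toy. MED26 read 1.90 and 1.88 after HP1 knock-down, against 1.66 and 0.04 after white knock-down, so its difference of 1.04 rests on a single low array. ATPsynbeta read 2.12 and 2.49 after HP1 knock-down, against 1.55 and 1.87 after white knock-down (0.60 ± 0.31), and Rad23 read 1.98 and 1.92, against 1.30 and 1.49 (0.55 ± 0.34). zfh2 read 2.44 and 2.06 after HP1 knock-down, against 3.19 and 2.73 after white knock-down (-0.71 ± 0.47). toy read 2.29 and 2.65, against 2.99 and 3.09 (-0.56 ± 0.40). At all 5 genes, picked for their low p, the arrays of both knock-downs did not overlap. Over the 33 genes this held for 12 higher (36.4%, against 22.1% of all genes) and 4 lower (12.1%, against 18.2%). None of the differences passed (limma adjusted p of 1.00 after rounding). At the genes where HP3 rose, the HP6 differences were 0.18 ± 0.26 for Ekar, -0.04 ± 0.35 for Gat and 0.24 ± 0.35 for mav.

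Over the 23 genes bound by HP1 the median HP6 difference was 0.24, with 16 above 0, and over the 599 HP1-bound genes of the whole array it was -0.10, with 230 above 0. HP6 was called at Gat and Ekar after both knock-downs. Gat read 0.90 and 1.08 after HP1 knock-down, against 1.31 and 0.74 after white knock-down, and Ekar 1.06 and 1.25, against 0.99 and 0.96. On the HP6 arrays without a knock-down Gat had read 0.69, 0.25 and 0.02 and was not called.

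The difference between both knock-down effects, HP6 minus HP3, passed at 0 of the 33 genes by limma, against 0.00% of all genes, and 5 of them had an unadjusted p under 0.05 (Ekar, Gyf, Gat, ATPsynbeta and PIP4K). It was -1.03 ± 0.34 at Ekar (adjusted p = 0.5), 1.51 ± 0.55 at Gyf (0.624) and -1.20 ± 0.45 at Gat (0.64). With only the 10 knock-down arrays in the fit 3 genes were called (Gyf, unc-13 and ATPsynbeta), against 2.30% of all genes. An HP3 response that differs from the HP6 response at these genes was not shown by this test.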

How the data were processed

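DamID ratios were measured on 35 2-colour cDNA arrays of Kc167 cells. The values deposited by the authors are log ratios (fusion over Dam), read here as log2. The base of the log is unstated, base e is possible, and sizes depend on it while tests do not. How the images were scanned, corrected and normalised and which genome build was used is likewise not given in the sources used here. Signal over background is unknown. Each probe is a cDNA, so a ratio is read at the exons of a gene, and binding at its promoter was not measured separately. Of 9993 probes, 8682 named 1 gene, and current symbols and gene order came from a RefSeq gene table of the Release 6 assembly. The 33 genes had 44 probes, which were averaged per gene. Of 434 missing values, 3 fell on these genes, all at bt.

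Arrays were grouped by their labels, and each was centred on its median. limma 3.58.1 in R 4.3.3 fitted 1 mean per group and a term for the dye of the fusion over all 35 arrays (23 residual degrees of freedom). Genes with values on fewer than 2 arrays of any group were left out (33 of 7736). There were 20 comparisons, two-sided, each adjusted by Benjamini-Hochberg over 7703 genes at a threshold of 0.05. The procedure was tested on simulated data. Values after ± are SE of the fit unless SD is written.

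Alternatives were no dye term, no centring, equal spread per array, only the arrays compared, probes kept apart, other rules on missing values, a replicate block, each array left out, and the fit without the doubted pair. Values on every array are given for the 3 highest called genes of each protein, those called for no heterochromatin protein, the called or 5 lowest-p genes of each knock-down, and the 2 largest called differences from HP1 each way. Other genes are given with calls and means, and a few single arrays were added after their values were seen. The members, lists and alternatives were chosen with earlier results of these data known.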

Additional observations from a re-analysis of the deposited data

Results flagged for a closer look

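Over 136 sets of 4 arrays (132 of 1 gene in 1 group, and 4 of the median of the genes in a group), 5 held a lone array whose gap to the next exceeded Dixon's critical value, or 3.68%, where chance gives about 5%, that is 1 in 20. Ank was at 0.052 on HP3 replicate 2, which is also the array whose Lhr ratio went against its label, while the other HP3 arrays read 2.28 to 2.70. Ank was at 0.063 on HP5 replicate 3, below 2.76 to 3.15 on the others. Tdg was at 2.05 on HP1 replicate 4, below 2.84 to 3.00. gw was at 0.22 on HP5 replicate 1, below 0.80 to 0.87. MED26 was at 2.93 on HP1 replicate 2, above 1.82 to 1.95.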

How the results depend on the processing

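Of 196 recomputed counts that left out no single array, 178 stayed within 1.5 times the reported count. With only the arrays compared, HP3 was called at 1 gene and Jra above 0 at 6, HP3, HP4, HP5 and Su(var)3-9 differed from HP1 at 0, 0, 7 and 3, HP3 was lower at 9 and higher at 6 after HP1 knock-down, and the knock-down effects differed at 3. That fit could not be made for HP6 after HP1 or white knock-down against 0, where no residual degrees of freedom were left. With arrays brought to 1 common spread, HP3 and HP4 differed from HP1 at 3 and 4 genes and HP3 was lower after HP1 knock-down at 0. It was also lower at 0 without a dye term and with probes kept apart. Scaling moved the medians of the 33 genes to 1.78 for HP3 after white knock-down, and for HP6 to 2.54 after HP1 knock-down and 2.23 after white knock-down. Without the doubted pair of arrays Jra was called at 2 genes (Pur-alpha and Rad23; 12.2% of all genes in that fit), and Su(var)3-9, HP3 and HP6 differed from HP1 at 11, 5 and 2. Shares of all genes for many of these counts are given above. Counts without such a share cannot be told from a shift over all genes. The cause of these changes was not tested.

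With each array left out in turn, counts called above 0 ran from 22 to 24 for HP1, 19 to 22 for Su(var)3-9, 9 to 21 for HP3, 20 to 23 for HP4, 19 to 21 for HP5, 19 to 23 for HP6 and 0 to 1 for Jra. After knock-down of HP1 and of white they ran from 23 to 26 and 20 to 25 for HP3, and from 14 to 23 and 4 to 23 for HP6. Counts different from HP1 ran from 4 to 10 for Su(var)3-9, 4 to 14 for HP3, 2 to 10 for HP4 and 6 to 13 for HP5. HP3 was higher after HP1 knock-down at 1 to 4 genes and lower at 0 to 2. It was higher at 1 without replicate 2 of either HP3 knock-down group, and lower at 2 without white knock-down replicate 2. The median of the 33 genes for Jra was 0.04, and turned to -0.066 without Jra replicate 1 and to 0.082 without Jra replicate 3. With the replicate block HP3 was called at 18 genes and differed from HP1 at 11, HP5 at 10 and Su(var)3-9 at 6. The numbers did not pair the arrays (correlations of same-numbered HP3 knock-down arrays 0.09, 0.05 and 0.25), and the block changed no count by more than 1.5 times. Most counts in this paragraph stand without the share of all genes in the same fit, so they do not separate these genes from a shift over all genes. The number of arrays limits the precision.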
